A study of Mus musculus with 7 samples.

Results

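The glutamate receptor genes and the genes of the postsynaptic scaffold were followed in neurospheres grown from the adult mouse hippocampus with and without deletion of Med23, which encodes a subunit of the Mediator complex that links transcription factors to RNA polymerase II. Members were picked by a rule on gene symbols, and this choice was made with earlier results of these data known. They comprise the subunits of the AMPA (Gria), kainate (Grik), NMDA (Grin) and delta (Grid) receptors, the metabotropic receptors (Grm), the auxiliary subunits Neto1, Neto2, Cnih2 and Cnih3, the scaffold genes Dlg1 to Dlg4, Shank1 to Shank3 and Homer1 to Homer3, and the subunits of the calcium/calmodulin kinase CaMKII (Camk2). The rule found 44 of the 24346 genes in the table.

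Control and Med23 CKO mice were C57/BL6 littermates that all received tamoxifen by gavage at 200 mg/kg daily for 5 days. The CKO mice carried Nestin-CreER and floxed Med23 on both alleles. The controls were labelled wild type and, by the methods of the study, were littermates with floxed Med23 on at least 1 allele. The genotypes listed there for these controls do not name Nestin-CreER. If the controls lacked it, effects of CreER with tamoxifen cannot be told apart from those of Med23 deletion. Each of the 7 libraries came from the primary neurospheres of 1 mouse. The 4 controls were mice WT_215, WT_116, WT_213 and WT_220, the 3 Med23 CKO mice were KO_117, KO_214 and KO_218, and values are given in these orders throughout. The labels give 2 months as the age of the mice, and the cells were expanded with EGF and FGF. CreER driven by Nestin acts in neural stem cells but can also act in other Nestin-positive cells, such as endothelial cells, and the methods describe no sort of the neurosphere cells.

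At a synapse, glutamate opens AMPA, kainate and NMDA receptor channels and acts more slowly through metabotropic receptors coupled to G proteins. Below the membrane, the MAGUK proteins encoded by the Dlg genes hold these receptors in place, Shank and Homer link them to the cytoskeleton and to metabotropic receptors, and CaMKII is activated by the calcium that enters. Several of the same genes are transcribed before any synapse has formed, in neural stem cells and in oligodendrocyte progenitors, where glutamate signals affect proliferation and differentiation. Levels below are FPKM, fragments mapped to a gene scaled to its length in kilobases and to the mapped fragments of the library. Fold changes are differences of mean log2(FPKM + 1) between Med23 CKO and control, a scale that understates the change of genes with low values.

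Med23 itself was measured at 11.4, 10.3, 12.9 and 10.1 FPKM in the controls and at 9.97, 9.27 and 8.12 FPKM in Med23 CKO. The groups did not overlap, and the log2 fold change was -0.26 (exact permutation p = 0.0571). The transcript was present in every CKO library, and exons of Med23 outside the deleted part also add to this value, so it is a weak check of the deletion. In bulk RNA, fewer cells of a kind and less RNA per cell cannot be told apart.

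The libraries were not all alike in cell content. Summed over a list of microglia and macrophage markers, FPKM ran from 38.6 to 244 in control and was 41.2, 1099 and 178 in Med23 CKO. KO_214, with 1099, also held the highest sums of endothelial markers (105, against 6.28 to 61.1 in the others) and of pericyte and fibroblast markers (324, against 48.1 to 96.4). Oligodendrocyte lineage markers summed to between 2979 and 5494 FPKM in control and between 2285 and 3364 in CKO, astrocyte markers to between 481 and 702 and between 384 and 969, neural stem cell markers to between 1932 and 3818 and between 1821 and 3801, and neuron markers to between 217 and 242 and between 142 and 260. Map2 alone made up 147 of the 260 FPKM of neuron markers in KO_117. By mean log2(FPKM + 1) over the neuron markers, KO_117 was instead the lowest library (2.69, against 2.80 to 3.59 in the others). No marker on these lists was at 0 in any library. Of 15 neuron markers tested, 1 (Gad1) fell in the CKO group (6.67%, against 0.996% of all genes, unadjusted limma test at 0.05) and 0 rose. None of the tested markers passed among 10 for stem cells (10 negative fold changes), 8 for astrocytes (5 positive), 12 for the oligodendrocyte lineage (11 negative), 11 for microglia (11 positive), 8 for endothelial cells (8 positive) and 9 for pericytes and fibroblasts (8 positive). The part that these cells play in the values of the members was not tested beyond the fits with marker terms given further on.

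The promoters shown here belong to the 3 members that passed an unadjusted p under 0.05 (Grin1, Cnih2 and Gria4) and to Camk2b, the member with the highest mean level. Each window holds 250 bases before and 50 bases after a RefSeq transcription start on GRCm38.p6, given 5′ to 3′ on the strand of the gene, and all 4 genes lie on the reverse strand. Capitals mark the GC box GGGCGG, a sequence bound by factors of the Sp family, and the longer GCGGGGGCG, a site known for Egr and Sp factors, on either strand. Grin1 runs from chr2:25291181-25319187 and its window is chr2:25319138-25319437. Cnih2 (chr19:5092868-5098521) has its window at chr19:5098472-5098771. For Camk2b (chr11:5969644-6066362) it is chr11:6065699-6065998, and for Gria4 (chr9:4417896-4796234) it is chr9:4796185-4796484.
Grin1: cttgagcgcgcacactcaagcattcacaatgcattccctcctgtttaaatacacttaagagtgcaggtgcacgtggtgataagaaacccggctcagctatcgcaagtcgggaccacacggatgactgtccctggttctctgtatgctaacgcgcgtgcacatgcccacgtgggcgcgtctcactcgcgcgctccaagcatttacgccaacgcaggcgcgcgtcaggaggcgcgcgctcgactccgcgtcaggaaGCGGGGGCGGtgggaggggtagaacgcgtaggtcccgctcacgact
Cnih2: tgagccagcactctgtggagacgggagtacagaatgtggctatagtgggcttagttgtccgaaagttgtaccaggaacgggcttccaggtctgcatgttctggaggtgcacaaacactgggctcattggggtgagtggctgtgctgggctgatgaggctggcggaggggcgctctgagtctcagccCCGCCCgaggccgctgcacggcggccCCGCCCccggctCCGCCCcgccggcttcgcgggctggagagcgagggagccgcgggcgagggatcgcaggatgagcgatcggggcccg
Camk2b: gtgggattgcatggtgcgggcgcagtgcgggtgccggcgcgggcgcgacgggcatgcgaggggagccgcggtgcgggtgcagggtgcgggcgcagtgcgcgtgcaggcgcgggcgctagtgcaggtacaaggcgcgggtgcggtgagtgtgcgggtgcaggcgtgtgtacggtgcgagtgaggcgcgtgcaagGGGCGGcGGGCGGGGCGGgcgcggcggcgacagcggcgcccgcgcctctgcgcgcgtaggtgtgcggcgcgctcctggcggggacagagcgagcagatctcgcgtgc
Gria4: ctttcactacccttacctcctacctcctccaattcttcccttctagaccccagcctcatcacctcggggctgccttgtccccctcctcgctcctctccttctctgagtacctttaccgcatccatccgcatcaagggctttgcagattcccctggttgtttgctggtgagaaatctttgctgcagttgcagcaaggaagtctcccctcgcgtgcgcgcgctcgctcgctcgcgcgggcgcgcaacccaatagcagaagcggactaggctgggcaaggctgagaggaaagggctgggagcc

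The Grin1 window held 1 GC box that overlaps 1 GCGGGGGCG site, and 60.7% of its bases were G or C. The windows of Cnih2 (67.3% G or C) and Camk2b (77.3%) held 3 GC boxes each, with a pair of those in Camk2b overlapping, and that of Gria4 (59.7%) held neither motif. Of the 44 members, 28 had a window in the table, and 22 of their 42 windows held a GC box, in 20 members. Over all 32851 windows of this length the share was 35.7%. GCGGGGGCG stood in the windows of 3 members, Grin1, Grm3 and Shank3, and in 2.91% of all windows. These matches describe the sequence only.

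Levels of the members spanned more than 3 orders of magnitude. Over the 7 libraries the highest means were those of Camk2b (95.7 FPKM), Gria2 (58.4), Dlg1 (42.7), Dlg4 (38.2), Cnih2 (33.9) and Grik5 (32.1), followed by Grm5 (28.5) and Gria3 (26.3), and neighbors in this order did not differ beyond their spread over mice. In all, 24 members averaged at least 5 FPKM and 11 averaged under 1 FPKM. Together the members held between 0.0634% and 0.148% of the summed FPKM of a library, with the lowest share in KO_214 and the highest in WT_215.

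**Figure D1:**
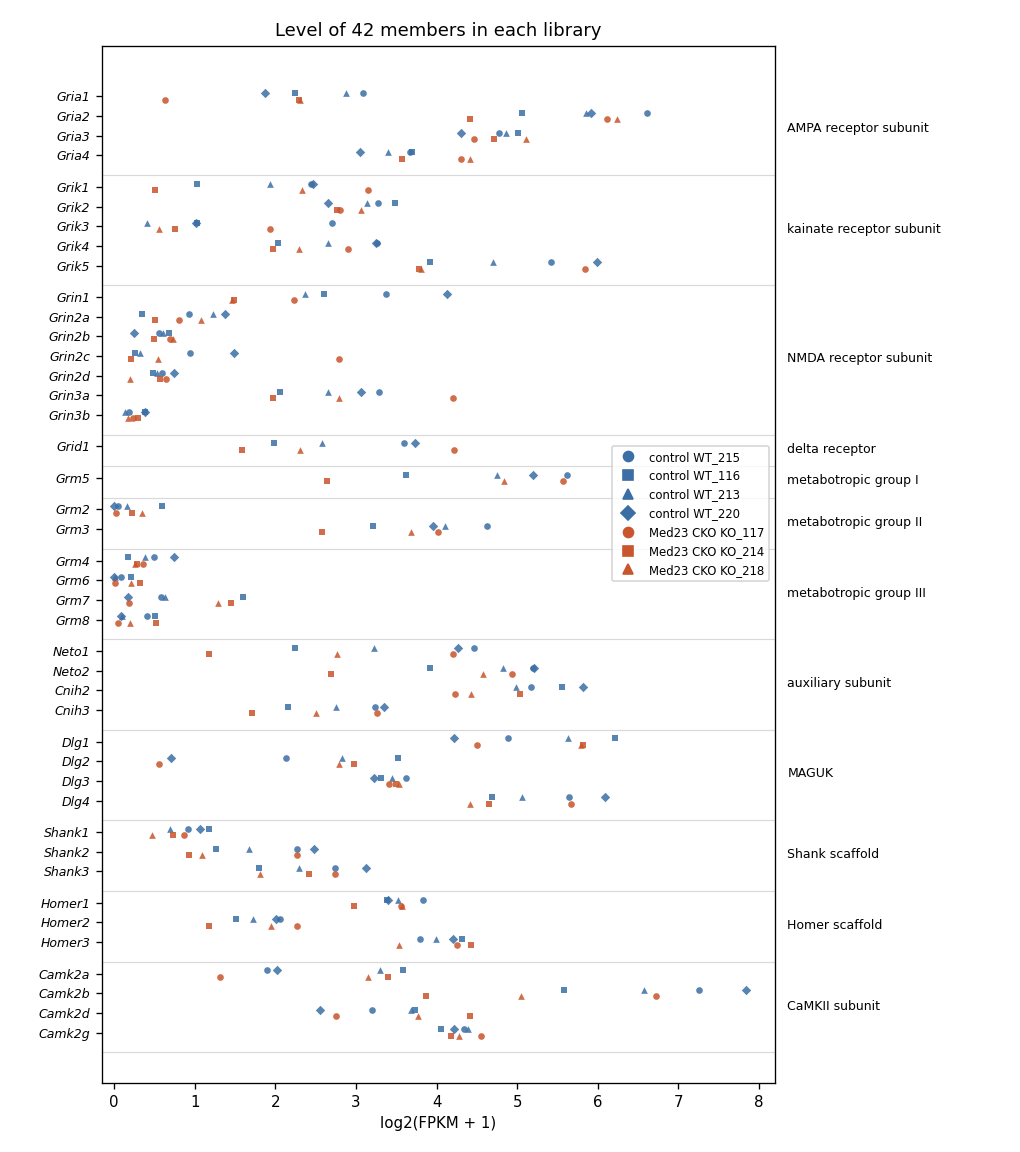
Level of 42 of the members in each library, as log2(FPKM + 1) on the horizontal axis, with members in rows ordered by role. Blue symbols are the 4 control mice and red symbols the 3 Med23 CKO mice. Camk2b reached the highest values, the metabotropic receptors other than Grm5 and Grm3 stayed under 2, and most rows show red and blue symbols intermixed.

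The comparison asked which members differed between Med23 CKO and control neurospheres. Of the 44 members, 36 had a mean of at least 0.5 FPKM and were tested, with limma fitted over all 14151 genes above that level. The obligatory NMDA receptor subunit Grin1 and the AMPA receptor auxiliary subunit Cnih2 fell and the AMPA receptor subunit Gria4 rose at an unadjusted p under 0.05. These are 2 members lower (5.56% of 36, against 0.996% of all genes tested) and 1 higher (2.78%, against 0.502%). After Benjamini-Hochberg adjustment over all genes, 0 members and 0 of 14151 genes (0%) passed 0.05 in limma.

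All 3 Med23 CKO values lay below all 4 control values for 1 member (Grin1), which is 2.78% of 36 members against 1.53% of all genes. They lay above for 0 members, against 0.784% of all genes. The log2 fold change was negative for 26 members and positive for 10, so that 72.2% were negative, compared with 56.2% of all genes. The median over the members was -0.23, and the median over all genes was -0.03. With single mice left out the members' median ran from -0.38 (without KO_117) to -0.05 (without KO_214). KO_214, the library with 1099 FPKM of microglia markers, had the lowest value of the 7 for 16 of the 36 members and the highest for 2, WT_220 had the highest for 10 and the lowest for 8, and WT_215 had the highest for 9 and the lowest for 0.

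**Figure D2:**
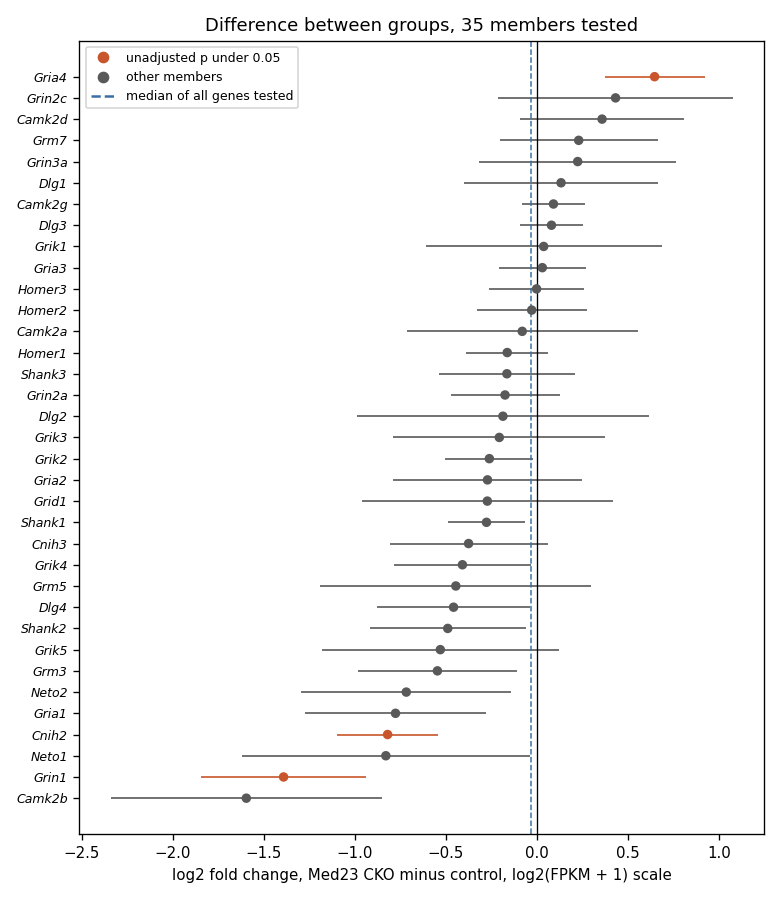
Log2 fold change of 35 of the members tested, Med23 CKO minus control on log2(FPKM + 1), with bars of 1 standard error from limma, members sorted by fold change, an unadjusted p under 0.05 in red and the median of all genes tested as a dashed line. Grin1 (-1.39) and Cnih2 (-0.82) lie to the left and Gria4 (0.65) to the right, all in red, while Camk2b (-1.60) has the lowest point and a wide bar.

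NMDA receptors need the subunit encoded by Grin1, which binds the coagonist glycine, together with Grin2 subunits that bind glutamate or Grin3 subunits that bind glycine. Grin1 was measured at 9.35, 5.08, 4.18 and 16.4 FPKM in the controls and at 3.70, 1.80 and 1.76 FPKM in Med23 CKO. The highest CKO library, KO_117, stayed under the lowest control, WT_213, so the groups did not overlap. The means were 8.76 ± 5.59 FPKM (SD, n = 4) and 2.42 ± 1.11 FPKM (SD, n = 3), a ratio of 0.276. The log2 fold change was -1.39 (SE 0.45, unadjusted p = 0.0164 and adjusted p = 1 from limma), and the exact permutation p of this single gene was 0.0571. It stayed negative with any single mouse left out, from -1.65 to -1.06, but the unadjusted limma p was 0.0511 without KO_214 and 0.0584 without KO_218.

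Grin3a, whose subunit lowers the calcium permeability of the receptor, was the only other NMDA receptor gene with a mean above 2 FPKM. Its values were 8.79, 3.15, 5.27 and 7.36 FPKM in control against 17.4, 2.92 and 5.94 FPKM in CKO. KO_117 was the highest of all libraries and KO_214 the lowest, so the CKO values enclosed the controls. Its log2 fold change of 0.22 (SE 0.54) changed sign without KO_117 (-0.38) and without WT_116 (-0.01).

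The Grin2 genes were low. Grin2a lay between 0.271 and 1.60 FPKM and Grin2b between 0.188 and 0.655 FPKM in the 7 libraries. Grin2d lay between 0.151 and 0.671 FPKM and Grin3b between 0.103 and 0.306 FPKM. Grin2b, Grin2d and Grin3b were below the level tested. Grin2c was 0.926, 0.194, 0.253 and 1.80 FPKM across the controls and 5.94, 0.155 and 0.463 FPKM across the CKO mice, where the single high value belonged to KO_117.

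The makeup of the NMDA receptor transcripts was then compared as the share of each gene in their summed FPKM, an analysis chosen after the values were seen. Grin1 held 44.3%, 50.8%, 34.5% and 58.0% of the sum in control and 12.7%, 28.0% and 17.2% in Med23 CKO. All CKO shares were lower, at 19.3% ± 7.88 (SD, n = 3) against 46.9% ± 9.98 (SD, n = 4). The difference of -27.6 percentage points had an exact permutation p of 0.0571. Grin3a showed the opposite, with 41.6%, 31.5%, 43.4% and 25.9% in control and 59.7%, 45.6% and 58.2% in CKO, a difference of 18.8 points (exact permutation p = 0.0286, the smallest that 4 against 3 mice allow). Over the 24 shares of the AMPA, kainate, NMDA, CaMKII and MAGUK families together, no adjusted exact p was below 0.457. Shares of 1 sum are not independent, because a lower share of Grin1 raises the others.

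**Figure D3:**
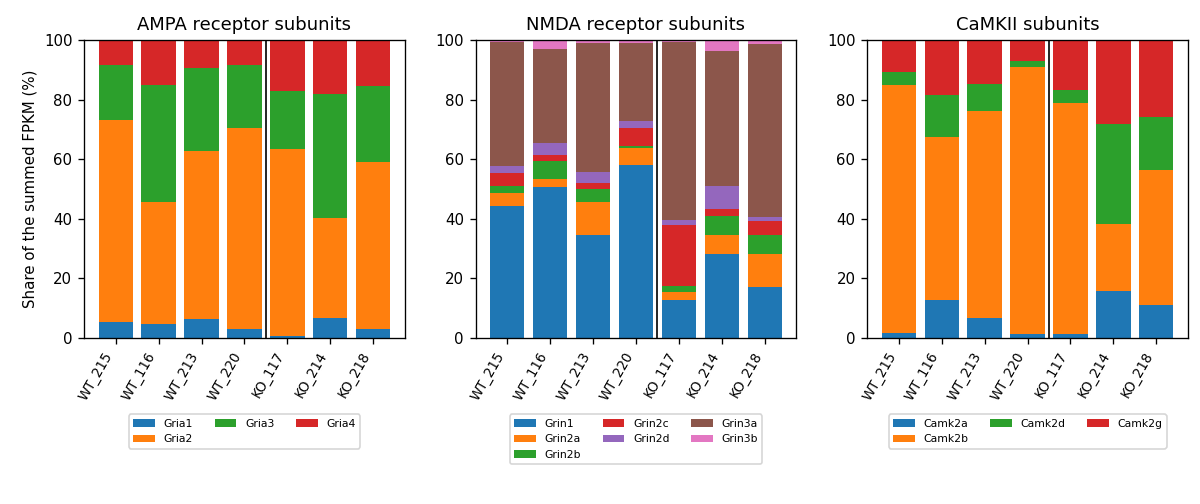
Makeup of 3 families in each library, as the percent of the family's summed FPKM held by each gene, with the 4 control mice to the left of each vertical line and the 3 Med23 CKO mice to the right. Grin1 took 34.5% to 58.0% of the NMDA receptor sum in control and 12.7% to 28.0% in CKO, Gria4 took a larger share of the AMPA receptor sum in every CKO library, and the share of Camk2b varied widely within both groups.

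AMPA receptors carry most fast excitatory transmission and are tetramers of the Gria subunits. Gria4, which is also expressed in glial progenitors, was measured at 11.8, 11.9, 9.53 and 7.27 FPKM in control, compared with 18.7, 10.9 and 20.4 FPKM in CKO. KO_117 and KO_218 lay above every control, and KO_214 lay among the controls. The means were 10.1 ± 2.19 FPKM (SD, n = 4) and 16.7 ± 5.05 FPKM (SD, n = 3). With a log2 fold change of 0.65 (SE 0.27), Gria4 passed narrowly (unadjusted p = 0.0488 and adjusted p = 1 in limma), and its exact permutation p was 0.114. Fold changes with single mice left out ran from 0.48 to 0.91. The unadjusted p rose above 0.05 without any 1 of the mice other than KO_214, so this call was marginal. Without WT_116 or WT_215 the fold change itself was larger (0.73 and 0.72), although the unadjusted limma p was 0.0514 and 0.0589.

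Gria2, the subunit whose edited form keeps AMPA receptors nearly impermeable to calcium, had the highest level of the family. It was 96.7, 32.4, 56.9 and 59.4 FPKM in control against 68.4, 20.4 and 74.2 FPKM in CKO, with overlapping groups and the lowest value in KO_214. A log2 fold change of -0.27 (SE 0.52, exact permutation p = 0.657) became 0.31 without KO_214. Gria3, which often pairs with Gria2, was 26.3, 31.1, 28.04 and 18.7 FPKM in the controls, with 21.04, 25.2 and 33.6 FPKM in CKO. Its group means differed by less than the spread within either group.

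Gria1, a subunit inserted into synapses during potentiation, was the lowest of the family at 7.51, 3.75, 6.34 and 2.66 FPKM across the controls and 0.544, 3.91 and 3.96 FPKM across the CKO mice. KO_117 stood far below the other libraries, and KO_214 and KO_218 lay among the controls. Gria1 had a log2 fold change of -0.78 (SE 0.50, exact permutation p = 0.257) which was -0.22 without KO_117. As a share of the AMPA receptor sum, Gria4 held 8.26%, 15.0%, 9.45% and 8.27% in control and 17.2%, 18.1% and 15.4% in CKO. Every CKO share was above every control share (exact permutation p = 0.0571).

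The auxiliary subunits travel with the receptor channels. Cnih2, a cornichon protein that aids export of AMPA receptors and slows their closing, was the more abundant of its pair. It was measured at 34.9, 46.2, 30.7 and 55.2 FPKM in control, compared with 17.7, 31.7 and 20.5 FPKM in CKO. KO_117 and KO_218 lay below every control, and KO_214 exceeded only WT_213. The means were 41.8 ± 11.1 FPKM (SD, n = 4) and 23.3 ± 7.38 FPKM (SD, n = 3), and the log2 fold change was -0.82 (SE 0.28, unadjusted p = 0.0198 and adjusted p = 1 from limma). Its exact permutation p was 0.0857. Leaving out single mice gave fold changes from -1.06 to -0.65, with an unadjusted limma p of 0.0645 without KO_117 and 0.0636 without KO_218.

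Neto1 and Neto2, auxiliary subunits of kainate receptors, followed a different order of mice. Neto1 was 21.03, 3.73, 8.34 and 18.2 FPKM in control against 17.4, 1.26 and 5.82 FPKM in CKO. Neto2 was 35.6, 14.1, 27.3 and 36.05 FPKM across the controls and 29.7, 5.44 and 22.9 FPKM across the CKO mice. In both genes KO_214 had the lowest value and KO_117 lay within the control range. Their log2 fold changes of -0.83 (SE 0.79) and -0.72 (SE 0.58) were -0.06 and -0.03 without KO_214. Cnih3 ranged from 3.46 to 9.14 FPKM in control and from 2.28 to 8.62 FPKM in CKO. All 4 auxiliary genes had a negative fold change, as did 56.2% of all genes, and their median was -0.77. Of the 4, 1 was lower in the unadjusted test (25%, against 0.996% of all genes), a share that rests on Cnih2 alone.

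Among kainate receptor genes, Grik5, which forms channels only with another Grik subunit, had the highest level. It was 41.7, 14.1, 25.1 and 62.4 FPKM in control, compared with 56.1, 12.7 and 13.02 FPKM in CKO, where KO_117 was near the top of the controls and the other CKO mice were below every control. The log2 fold change was -0.53 (SE 0.65, exact permutation p = 0.457). Grik2, a channel-forming subunit, was 8.70, 10.2, 7.77 and 5.28 FPKM in the controls, with 5.96, 5.79 and 7.36 FPKM in CKO. Every CKO mouse was below all controls but WT_220. Grik4, a partner subunit like Grik5, was 8.57, 3.08, 5.32 and 8.53 FPKM in the controls, with 6.49, 2.91 and 3.91 FPKM in CKO, and the groups overlapped. Grik1 lay between 0.422 and 7.91 FPKM and Grik3 between 0.329 and 5.49 FPKM over the 7 libraries. Of the 5 kainate genes, 4 had a negative fold change (against 56.2% of all genes), the median was -0.26, and 0 passed the unadjusted test.

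The delta receptors bind cerebellins at synapses and are not opened by glutamate. Grid1 was 11.1, 2.95, 4.97 and 12.3 FPKM in control against 17.5, 2.00 and 3.93 FPKM in CKO, with the highest value in KO_117 and the lowest in KO_214. Grid1 did not pass the unadjusted test.

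Of the 8 metabotropic receptors, only Grm5 and Grm3 had a mean above 1 FPKM. Grm5, which acts through phospholipase C and calcium stores and is present in progenitors and astrocytes as well as neurons, was 48.1, 11.3, 25.8 and 35.5 FPKM across the controls and 46.3, 5.21 and 27.6 FPKM across the CKO mice. Grm3, which lowers cyclic AMP and is a receptor of astrocytes, was 23.7, 8.25, 16.2 and 14.5 FPKM in control, compared with 15.2, 4.96 and 11.8 FPKM in CKO. Both genes were lowest in KO_214 and highest in WT_215, and the groups overlapped. The log2 fold change of Grm5 (-0.45, SE 0.74) became 0.41 without KO_214, and that of Grm3 (-0.55, SE 0.44) ran from -0.85 to -0.12 with single mice left out. Grm7, a presynaptic receptor in neurons, was 0.491, 2.04, 0.548 and 0.130 FPKM in the controls, with 0.137, 1.74 and 1.44 FPKM in CKO. Its level was high in WT_116, KO_214 and KO_218 and low in the rest.

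The other 5 metabotropic receptors were below the level tested. Grm4 was 0.409, 0.131, 0.299 and 0.680 FPKM in the controls, with 0.281, 0.215 and 0.196 FPKM in CKO. Grm8 was 0.332, 0.421, 0.0674 and 0.0646 FPKM in the controls, with 0.0350, 0.439 and 0.149 FPKM in CKO. Neither reached 1 FPKM in any mouse. Grm2, of group II, was 0.0324, 0.514, 0.113 and 0 FPKM in the controls and 0.0172, 0.162 and 0.274 FPKM in CKO mice. Grm6 reached at most 0.249 FPKM, and both were listed at 0 in WT_220, so these receptors were near the limit of the table in every mouse.

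Of the 4 MAGUK genes 0 passed the unadjusted test, and their median log2 fold change was -0.05. Dlg4, which encodes PSD-95, the main scaffold of excitatory synapses, was 48.7, 24.7, 32.4 and 67.1 FPKM in control against 49.8, 24.04 and 20.3 FPKM in CKO. Dlg1, which encodes SAP97 and also acts in cell polarity, was 28.5, 72.9, 48.4 and 17.6 FPKM across the controls and 21.6, 55.4 and 54.2 FPKM across the CKO mice. The mice ran in nearly opposite orders in these genes: WT_220 was the highest library for Dlg4 and the lowest for Dlg1. The log2 fold changes were -0.46 (SE 0.42) for Dlg4 and 0.13 (SE 0.53) for Dlg1. Dlg2 varied more than any other MAGUK, from 0.635 to 10.5 FPKM in control and from 0.471 to 6.90 FPKM in CKO, whereas Dlg3, which encodes SAP102, was steady at 11.3, 8.90, 9.93 and 8.36 FPKM in the controls and 9.65, 10.2 and 10.6 FPKM in CKO mice.

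The outer scaffold was low to moderate. Shank2 was 3.82, 1.39, 2.19 and 4.59 FPKM in control, compared with 3.83, 0.912 and 1.12 FPKM in CKO, with a log2 fold change of -0.49 (SE 0.43). KO_214 and KO_218 were below every control and KO_117 was among them. Shank1 was 0.892, 1.27, 0.619 and 1.09 FPKM in the controls, with 0.826, 0.654 and 0.384 FPKM in CKO. Shank3 was 5.68, 2.48, 3.90 and 7.75 FPKM in the controls, with 5.70, 4.34 and 2.51 FPKM in CKO. All 3 Shank genes had negative fold changes (against 56.2% of all genes) with a median of -0.28, and 0 passed the unadjusted test.

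Homer proteins tie Shank to group I metabotropic receptors. Homer1 was 13.2, 9.43, 10.5 and 9.58 FPKM in the controls, with 10.8, 6.88 and 10.9 FPKM in CKO. Homer2 was 3.17, 1.86, 2.30 and 3.01 FPKM in the controls, with 3.81, 1.26 and 2.85 FPKM in CKO. Both were lowest in KO_214 and the groups overlapped. Homer3 was 12.8, 18.8, 14.9 and 17.4 FPKM in the controls, with 18.02, 20.4 and 10.6 FPKM in CKO, where KO_214 was the highest and KO_218 the lowest of all libraries. The 3 Homer genes gave 0 calls and a median of -0.03.

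CaMKII is a holoenzyme built from the products of 4 genes, of which Camk2a and Camk2b dominate in neurons. Camk2b was measured at 152, 46.7, 93.8 and 228 FPKM in control against 104, 13.6 and 32.1 FPKM in CKO. KO_214 and KO_218 lay below every control, and KO_117 lay above WT_116 and WT_213. The means were 130.0 ± 78.01 FPKM (SD, n = 4) and 49.98 ± 47.9 FPKM (SD, n = 3). The log2 fold change of -1.60 (SE 0.75) was the most negative of all members but did not pass (unadjusted p = 0.0670 in limma), and the exact permutation p was 0.171. Single mice left out gave fold changes from -2.35 to -0.93. With single mice left out, the unadjusted limma p fell under 0.05 only without KO_117 (0.00744) or without WT_116 (0.0296). KO_117 was the highest CKO mouse and WT_116 the lowest control, so each was the nearest of its group to the other group.

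Camk2a, the main CaMKII gene of mature excitatory neurons, was far lower than Camk2b in most libraries at 2.74, 10.95, 8.81 and 3.07 FPKM across the controls and 1.48, 9.50 and 7.90 FPKM across the CKO mice. Camk2d was 8.18, 12.3, 11.8 and 4.85 FPKM in control, compared with 5.72, 20.4 and 12.6 FPKM in CKO, with the highest value in KO_214 and a log2 fold change of 0.36 (SE 0.45). Camk2g was steadier, at 19.2, 15.6, 19.9 and 17.6 FPKM in the controls and 22.5, 17.1 and 18.5 FPKM in CKO mice. The 4 CaMKII genes had a median fold change of 0.00, with 2 negative and 2 positive. Camk2b made up 83.5%, 54.6%, 69.8% and 89.9% of the summed CaMKII FPKM in control and 77.8%, 22.4% and 45.2% in CKO. The mean share was 26.0 points lower in CKO (exact permutation p = 0.171). The SD was 15.7 points in control and 27.9 points in CKO, and the groups overlapped.

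Camk2b ordered the mice almost as did Olig2, a transcription factor of oligodendrocyte progenitors that is also expressed by dividing neural progenitors. Olig2 was 461, 152, 215.3 and 701 FPKM in control against 505, 83.96 and 149 FPKM in CKO. Each FPKM of Camk2b was therefore set against the Olig2 value of its library, a description chosen after the values were seen. The ratio was 0.329, 0.308, 0.436 and 0.325 in control and 0.206, 0.162 and 0.215 in CKO, so the groups did not overlap. Of the 36 members, Camk2b was the only one with all CKO ratios below all control ratios, which held for 0.134% of all genes tested. Olig2 was picked because it ordered the mice almost as Camk2b did. Its own values varied widely and overlapped between groups, so genes that do not follow it readily overlap after the division. That share is therefore not a rate by which to judge the Camk2b ratio. For Grin1 the ratio was 0.0203, 0.0335, 0.0194 and 0.0235 in control and 0.00732, 0.0214 and 0.0118 in CKO, and the groups overlapped through KO_214.

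**Figure D4:**
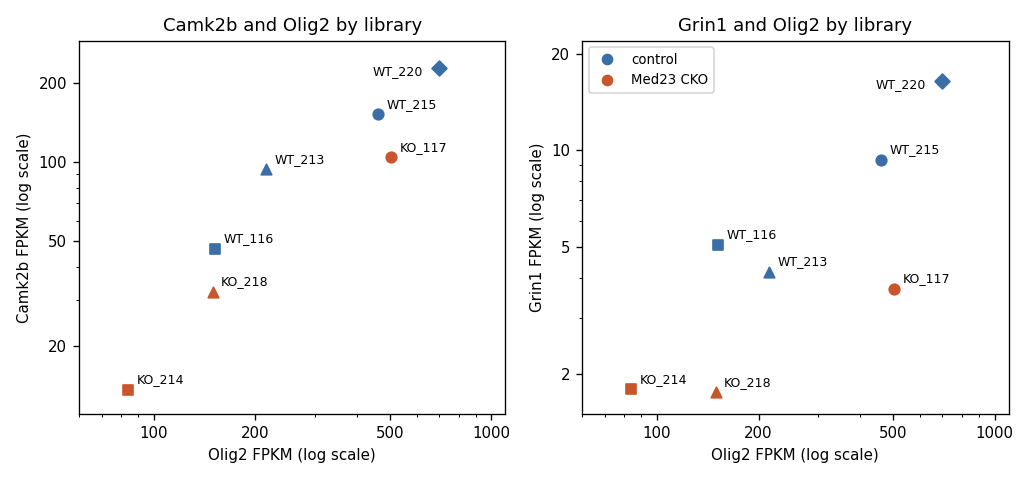
FPKM of Camk2b (left) and Grin1 (right) against FPKM of Olig2 in the 7 libraries, both axes on a log scale, with control mice in blue and Med23 CKO mice in red. For Camk2b, KO_117 and KO_218 lie below the control points nearest to them in Olig2, and KO_214, with 83.96 FPKM of Olig2, has no control at its level. KO_117, with 505 FPKM of Olig2, had 104 FPKM of Camk2b and 3.70 FPKM of Grin1.

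Because markers of other cells differed among the mice, the limma fit was repeated with 1 marker measure at a time as a term, alternatives chosen after the data were seen. With log2(Olig2 FPKM + 1) as the term, 6 members were lower (16.7%, against 7.81% of all genes) and 4 were higher (11.1%, against 3.73%) at an unadjusted p under 0.05. The lower ones were Gria1, Grin1, Cnih2, Dlg2, Camk2a and Camk2b, and the higher ones Gria4, Grin2c, Grin3a and Grid1. With log2(Mbp FPKM + 1), a measure of myelin protein transcript, 11 members were lower (30.6%, against 9.21%) and 2 were higher (5.56%, against 4.9%). The lower ones were Grik4, Grik5, Grin1, Grid1, Neto1, Neto2, Cnih2, Cnih3, Dlg4, Shank2 and Camk2b, and the higher ones Gria4 and Camk2d. With the mean level of the microglia markers, 4 were lower (Gria1, Grin1, Cnih2 and Camk2b, 11.1%, against 3.07%) and 3 were higher (Gria4, Grin2c and Grin3a, 8.33%, against 1.14%).

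Grin1, Cnih2 and Camk2b were lower and Gria4 was higher in each of these 3 fits at an unadjusted p under 0.05, and 0 members passed after adjustment in any of them. In the order Olig2, Mbp and microglia, the log2 fold change of Grin1 was -0.99, -1.59 and -1.10, and that of Cnih2 was -0.89, -0.78 and -0.90. For Camk2b it was -0.80, -2.02 and -0.96, with adjusted limma p of 0.147, 0.272 and 0.999. For Gria4 it was 0.67, 0.65 and 0.74. The share of all genes called also rose in every such fit, and the marker levels come from the same 7 libraries.

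Another 44 genes of the glutamatergic synapse, among them further auxiliary subunit, scaffold and receptor trafficking genes and the vesicular glutamate transporters, were listed beside the members. Of the 40 tested, 3 were lower at an unadjusted p under 0.05 (7.5%, against 0.996% of all genes), 1 was higher (2.5%, against 0.502%) and 0 passed after adjustment in limma. The median log2 fold change was -0.22, with 28 negative and 12 positive. Begain, whose product binds PSD-95, was 4.29, 3.67, 3.66 and 5.66 FPKM across the controls and 0.793, 3.62 and 1.57 FPKM across the CKO mice. All CKO values lay below all control values, though KO_214 was only just under the lowest control, and the log2 fold change was -0.93 (SE 0.34).

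Pick1, a PDZ protein that binds AMPA receptor tails and takes part in their internalization, was 17.6, 15.8, 15.5 and 17.4 FPKM in control, compared with 13.6, 12.5 and 11.6 FPKM in CKO. The groups did not overlap, with a log2 fold change of -0.38 (SE 0.16). Begain and Pick1 were the 2 of the 40 with all CKO values below all control values (5%, against 1.53% of all genes). All CKO values lay above for 0 of the 40, against 0.784% of all genes. Gsg1l, an auxiliary subunit that slows recovery of AMPA receptors, was the gene that rose, at 0.275, 0.462, 0.420 and 0.649 FPKM across the controls and 2.56, 0.632 and 1.26 FPKM across the CKO mice (a log2 fold change of 0.71, SE 0.29). KO_214 lay just below the highest control in Gsg1l, and KO_117 and KO_218 lay above all of them.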

How the data were processed

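RNA of primary neurospheres was sequenced in 7 libraries, 4 control and 3 Med23 CKO, each from 1 mouse and matched to its group by its title. The study gives 3 mice per group for this assay and does not name the controls it used, so all 4 were kept. The authors removed adapters, aligned reads to mm10 with TopHat and deposited FPKM per gene from Cuffdiff, tools that the submitters' processing notes list beside FastQC. The gene annotation was not given in the sources used here. The table also holds the authors' own comparison (group means, fold changes, test statistics, p-values and q-values), which was not used, and 0 value columns without a sample. Read counts were not used and the depth is unknown: low FPKM values fell on no steps of whole reads, since the fullest bin of 0.05 log2 units held at most 4.56% of low genes over 21 pairs of libraries. The number of mice limits the precision. Correlations of log2(FPKM + 1) over all genes between libraries ran from 0.907 to 0.990, and 0 pairs held identical values.

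Values were analysed as log2(FPKM + 1), thus with a pseudocount of 1. The 14151 genes that averaged 0.5 FPKM or more were tested. Groups were compared by limma 3.58.1 in R 4.3.3 (lmFit and eBayes with trend, two-sided) with Benjamini-Hochberg adjustment over all genes tested. Single genes and shares were tested by two-sided exact permutation over the 35 ways to draw 3 of 7 mice in Python 3.11.15, where the smallest p is 0.0286. The members, the lists of synapse genes and cell markers and the marker terms were chosen with earlier results of these data known. By the rule for naming, values in every library are given for members with an unadjusted p under 0.05 or groups that do not overlap and for the 3 members with the highest mean of each role, other members are given by range, and other synapse genes are named where they pass or do not overlap. Gria1 and Camk2a, and the members with a printed fold change, were picked after their values were seen. The fit was tested on simulated data with known changes. Alternatives were a pseudocount of 0.1, no filter, a minimum mean of 1 FPKM, quantile normalization, median centring, eBayes without trend, robust eBayes (statmod 1.5.0), array weights (whose iteration stopped before its tolerance was reached), the leading digit of each mouse's number as a term, the exact permutation test and each mouse left out. Gene coordinates are from GENCODE and promoter windows from RefSeq, both on GRCm38, which is mm10. The labels give tamoxifen at 2 months of age, and the study's methods an earlier age for cultures. Some genes that these rules would name are not reported here.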

Additional observations from a re-analysis of the deposited data

How the results depend on the processing

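No member passed an adjusted p of 0.05 in limma under any alternative run, marker terms and single mice left out included. The count of lower members (2) became 5 with array weights, 6 with the Olig2 term, 11 with Mbp and 4 with microglia, and ran from 0 (without KO_218, and 1 without KO_214) to 3 with single mice left out. The count of higher members (1) was 0 with the leading digit of the mouse number as a term, median centring, quantile normalization or no filter, 4 with Olig2, 2 with Mbp, 3 with microglia, and 0 to 1 with single mice left out. With single mice left out, members entirely below the controls numbered 1 to 5. The 5 without KO_117 were 13.9% of members against 12.1% of all genes, the 3 without WT_213 8.33% against 2.14%, the 3 without WT_220 8.11% against 2.77%, and the 2 without KO_214 5.41% against 5.59%. Members entirely above numbered 0 to 2, at most 5.41% against 2.56% without KO_214. Among the other synapse genes, the lower count (3) was 8 with array weights, 1 with the leading digit, 8 with Olig2, 9 with Mbp, 5 with microglia and 0 (without WT_215, WT_220 or KO_218) to 4 with single mice left out, and the higher count (1) was 2 with array weights, 4 with Olig2, 2 with Mbp, 0 at a mean FPKM of at least 1 and 0 to 1 with single mice left out. For these limma counts, the share of all genes called was given only for the comparison without a marker term and for the marker terms. Counts under the other settings have no such share beside them, so they cannot be read as particular to the members or the synapse genes. The cause of the shifts in count was not tested. The difference in the Camk2b share ran from -40.7 to -12.9 points with single mice left out.

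Some fold changes reversed. Gria2 was 0.034 with array weights, 0.12 with Olig2, 0.094 with microglia and -0.59 to 0.31 with single mice left out. Grik5 was 0.15 with Olig2. Grin3a was -0.060 with Mbp and -0.38 to 0.73 with single mice left out. Grm5 was 0.25 with Olig2, 0.17 with microglia and -1.06 to 0.41 with single mice left out. Dlg1 was -0.41 with Olig2, -0.24 with microglia and -0.21 to 0.57 with single mice left out. Camk2d was -0.10 with Olig2, -0.027 with microglia and -0.029 to 0.81 with single mice left out. Over 19 alternatives, 16 of the 36 members tested, among them Grin1, Cnih2, Camk2b and Gria4, kept the sign of their fold change, and 20 changed it in at least 1. Leaving a group with fewer mice widens its error. No paired analysis was possible because the litter of each mouse was not given in the sources used here. Depth limits could not be computed from FPKM.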

Other observations

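Values of 2 other synapse genes that did not pass the comparison without a marker term were chosen after they were seen. Dlgap3, which links PSD-95 to Shank, was 38.1, 11.6, 12.8 and 64.4 FPKM in the controls and 47.97, 2.83 and 4.85 FPKM in the CKO mice, in the order used above, with a log2 fold change of -1.32 and an SE of 0.97. KO_214 and KO_218 were below every control and KO_117 was above 3 of them. Cacng4, an auxiliary subunit of AMPA receptors, was 113, 11.2, 20.8 and 78.9 FPKM in the controls, against 68.7, 9.52 and 14.5 FPKM in CKO, with a log2 fold change of -0.81 and an SE of 0.94. In both genes WT_215, WT_220 and KO_117, the mice with the highest Olig2, had the highest values. With log2(Mbp FPKM + 1) as a term, the log2 fold change was -1.89 for Dlgap3 and -1.29 for Cacng4, and both passed an unadjusted limma test at 0.05. With Olig2 as the term they were -0.28 and 0.16, with microglia markers -0.50 and -0.10, and neither gene passed.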
